A study of Mus musculus with 2 samples.

Results

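The miR-148 and miR-152 family of the mouse has 3 genes, Mir148a, Mir148b and Mir152, which were chosen by their gene symbols in GENCODE M21 and make up 3 of the 2202 microRNA (miRNA) genes counted. The data are 2 small RNA libraries, of RNA below 30 nt, from the left cerebral cortex of adult B6CASTF1/J mice aged 18 to 20 months. This strain is the first-generation hybrid of C57BL/6J and CAST/EiJ, and no treatment or other genotype is given. Both libraries form 1 group, numbered as biological replicates 1 and 2, so the design compares genes and libraries and holds no contrast of conditions. The labels name a separate tissue sample for each library but 1 donor record for both, so the spread between them may be partly technical. They also give the sex as male in one field and as female in another, and sex was not used.

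A miRNA is cut from a hairpin precursor, and 1 strand of the resulting duplex guides Argonaute to messenger RNAs that pair with its seed, bases 2 to 8 from the 5′ end. Loci that share a seed are grouped as a family because they can bind the same target sites. The miR-148 and miR-152 family is known for repressing transcripts of the DNA methyltransferases DNMT1 and DNMT3B, and miR-148a also for acting on lipid genes such as the LDL receptor in liver. Its guide strand is usually the one from the 3′ side of the hairpin (3p), and the strand from the 5′ side (5p) is the minor product.

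The mature sequences are shown because the seed is what makes these unlinked loci a family. All 3 genes matched the RefSeq table of miRNA sequences (GRCm38.p6, the assembly that mm10 represents). The 3p arms follow, 5′ to 3′, with the seed in capitals.
mmu-miR-148a-3p: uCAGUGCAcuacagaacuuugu
mmu-miR-148b-3p: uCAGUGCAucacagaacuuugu
mmu-miR-152-3p: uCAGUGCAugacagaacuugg
The 5p arms of the same hairpins are these, again with bases 2 to 8 in capitals.
mmu-miR-148a-5p: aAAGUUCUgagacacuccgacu
mmu-miR-148b-5p: gAAGUUCUguuauacacucaggcu
mmu-miR-152-5p: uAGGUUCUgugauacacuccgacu

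Among 1679 named mature sequences of the table, the seed CAGUGCA was found at bases 2 to 8 in 3, and these were the 3p arms of the 3 family genes. A target site that pairs with the whole seed reads UGCACUG. The 3p arms were alike beyond the seed as well. Counted from 1 at the 5′ end, miR-148a-3p and miR-148b-3p matched at 20 of 22 positions and differed by C9U and U10C, given as the base of the first and then of the second. From miR-148a-3p to miR-152-3p the differences over 21 positions were C9U, U10G and U20G. From miR-148b-3p to miR-152-3p they were C10G and U20G. All these differences lay 3′ of the seed, and position 10 was the only one at which each arm had its own base.

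The 5p arms were less alike. miR-148a-5p and miR-148b-5p shared the bases AAGUUCU at positions 2 to 8, which no other entry of the table had there, but matched at only 13 of 22 positions when set side by side from the 5′ end. miR-152-5p had AGGUUCU at these positions, found in no other entry. Over the whole arm, miR-152-5p matched miR-148a-5p at 12 of 22 positions and miR-148b-5p at 19 of 24. The last was the most alike pair of 5p arms, although their bases 2 to 8 differ. The seed shared by all 3 loci is therefore that of the 3p arm. The deposited counts are per hairpin, so they do not tell reads of the 3p arm from those of the 5p arm.

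The loci lie on 3 chromosomes. Mir148a (ENSMUSG00000065505.1) lies at chr6:51269812-51269910 on the minus strand (mm10), where no other annotated gene overlaps it. The nearest gene, the long noncoding Gm32479, lies 13622 bases away, and the nearest protein-coding gene, Nfe2l3, lies 162760 bases away. Mir148b (ENSMUSG00000065560.1) lies at chr15:103285125-103285221 on the plus strand, and Mir152 (ENSMUSG00000065515.1) at chr11:96850393-96850465 on the plus strand. Both of these lie on the same strand within a protein-coding gene for a zeta subunit of coatomer, the coat of vesicles that return from the Golgi to the endoplasmic reticulum. The host of Mir148b is Copz1 and the host of Mir152 is its paralog Copz2.

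Both hairpins lie in the first intron of their host. All 4 annotated Copz1 transcripts hold Mir148b in intron 1, which is 16159 bases long, with 12183 bases between exon 1 and the hairpin and 3879 bases from the hairpin to exon 2. Of 5 Copz2 transcripts, 3 hold Mir152 in intron 1, and the other two begin downstream of it. That intron is 676 bases long, with 396 bases before the hairpin and 207 after it. Mir148b and Mir152 thus share the host family, the strand and the order of the intron, while the introns differ in length.

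**Figure D1:**
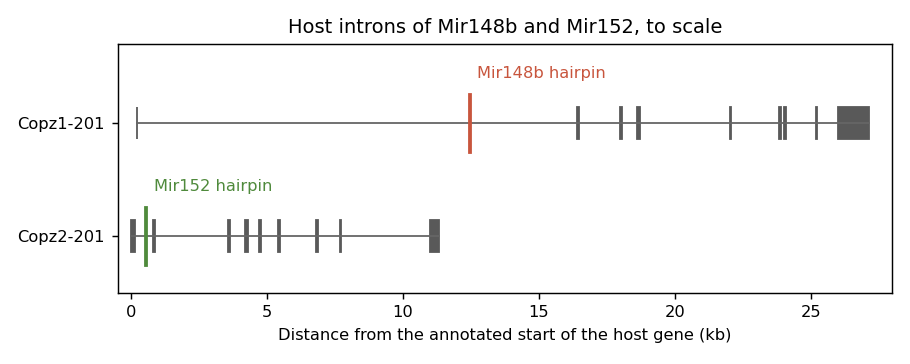
Exons (dark blocks) of 1 protein-coding transcript each of Copz1 and Copz2 and the miRNA hairpins (coloured bars, taller than the exons), with distance from the annotated start of each host gene in kb on 1 shared scale. Both hairpins lie between exon 1 and exon 2, with the exons on each side at 12183 and 3879 bases from Mir148b and at 396 and 207 bases from Mir152.

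The hairpins are shown to place the 3p arm, in capitals, within each precursor.
Mir148a: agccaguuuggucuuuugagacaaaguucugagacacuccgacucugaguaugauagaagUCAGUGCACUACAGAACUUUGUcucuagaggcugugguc
Mir148b: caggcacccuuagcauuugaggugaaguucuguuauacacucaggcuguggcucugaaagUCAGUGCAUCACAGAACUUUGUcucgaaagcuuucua
Mir152: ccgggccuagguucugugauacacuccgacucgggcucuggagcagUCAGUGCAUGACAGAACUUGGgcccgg
The arm spans bases 61 to 82 of the Mir148a and of the Mir148b hairpin and bases 47 to 67 of the Mir152 hairpin. The annotated hairpins are 99, 97 and 73 bases long. Their GC content was 45.5% for Mir148a, 45.4% for Mir148b and 61.6% for Mir152, against a median of 51.8% over 957 hairpins of named miRNA genes. The predicted minimum free energy of folding was -41 kcal/mol for Mir148a, -30.9 kcal/mol for Mir148b and -43.5 kcal/mol for Mir152. Per base, Mir152 was the most stable of the 3 at -0.60 kcal/mol and Mir148b the least at -0.32 kcal/mol, with a median of -0.41 kcal/mol over the 957 hairpins.

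Reads that map to several places are kept on a line of their own in the deposited tables and stand under no gene, so it matters whether the family's loci could be mistaken for each other. The longest word that 2 of the 3p arms had in common was 12 bases, between miR-148a-3p and miR-148b-3p, and it was the 3′ end acagaacuuugu. Each other pair of 3p arms shared at most 9 bases in a row. No word of 20 bases from any of the 3 hairpins occurred in an annotated transcript of another gene, on either strand of 141767 transcripts. With words of 18 bases, 1 other gene, Medag, shared one with Mir148b and none with Mir148a or Mir152. Words of 16 bases were shared with 18 other genes by Mir148a, 15 by Mir148b and 6 by Mir152, none of them a miRNA gene. Of the 3p arms alone, no word of 18 bases occurred elsewhere, and at 16 bases only the arm of miR-152 shared one, with 1700009C05Rik. Copies outside annotated transcripts were not searched, and the mismatches that the alignment allowed are stated in no source used here.

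Replicate 1 held 8041772 reads and replicate 2 held 12239366, of which 2381663 and 4436398 lay on the annotated strand of a miRNA gene. Levels are given as CPM, with these miRNA reads as the denominator. A single read equalled 0.42 CPM in replicate 1 and 0.225 CPM in replicate 2. A count of 0 allowed up to 1.26 and 0.676 CPM. Multimapping reads took 35.6% and 44.8% of all reads, and 30.8% and 14.6% were unmapped. Intervals below are 95% exact Poisson or binomial intervals, which cover counting error only and hold no term for the spread between libraries. PCR copies are not independent molecules, so the intervals may be too narrow even for counting error.

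All 3 loci were detected in both libraries with 98 to 395 reads each. Mir148a had 98 reads in replicate 1, which was 41.1 CPM (95% interval 33.4 to 50.1), and 171 reads in replicate 2, which was 38.5 CPM (33.0 to 44.8). Its 2 values lay within each other's intervals, with a mean of 39.8 ± 1.84 CPM (SD, n = 2). Mir152 had 107 reads in replicate 1, or 44.9 CPM (36.8 to 54.3), and 221 in replicate 2, or 49.8 CPM (43.5 to 56.8). Its values also lay within each other's intervals, with a mean of 47.4 ± 3.46 CPM (SD, n = 2). Mir148b had 135 reads in replicate 1, or 56.7 CPM (47.5 to 67.1), and 395 in replicate 2, or 89.0 CPM (80.5 to 98.3). Here the intervals of the 2 libraries did not overlap, and the mean was 72.9 ± 22.9 CPM (SD, n = 2). In bulk tissue, fewer cells that express a miRNA and less of it per cell cannot be told apart. No read lay on the opposite strand at any of the 3 loci in either library, and the counts for both strands together were the same as those for the annotated strand.

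**Figure D2:**
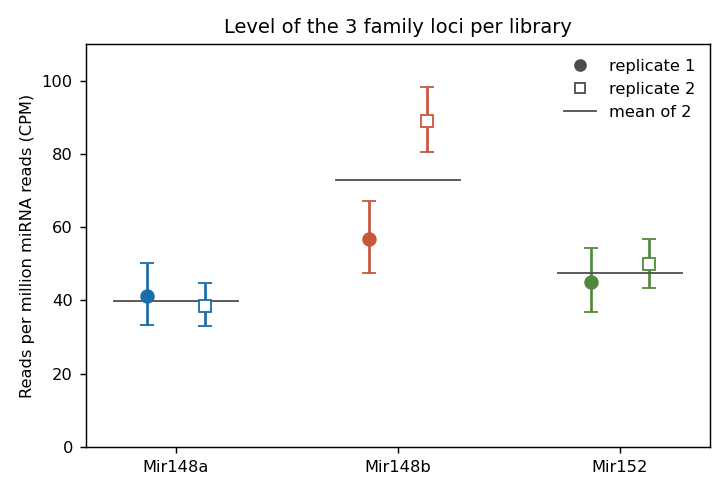
Level of each family locus in CPM in replicate 1 (filled circles) and replicate 2 (open squares), with 95% exact Poisson intervals and the mean of both as a line. Mir148a stood at 41.1 and 38.5 CPM and Mir152 at 44.9 and 49.8 CPM, while Mir148b stood at 56.7 and 89.0 CPM.

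Mir148b had the highest level in both libraries, then Mir152, then Mir148a in replicate 1 as in replicate 2. The gap between Mir152 and Mir148a was small against counting error in replicate 1, where the reads ratio of Mir152 to Mir148a was 1.09 (95% exact interval 0.822 to 1.45), and larger in replicate 2, at 1.29 (1.05 to 1.59). Mir148b exceeded Mir148a in reads by 1.38 times in replicate 1 (1.05 to 1.81) and by 2.31 times in replicate 2 (1.93 to 2.78). It exceeded Mir152 in reads by 1.26 times in replicate 1 (0.972 to 1.64), an interval that spans equality, and by 1.79 times in replicate 2 (1.51 to 2.12). Between the means of Mir148b and Mir152 the difference was about as large as the SD of Mir148b. Both loci are read in the same library, however, and their log2 reads ratio was 0.34 in replicate 1 and 0.84 in replicate 2. With 2 libraries and an interval that spans equality in replicate 1, their order is only weakly resolved.

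A read below 30 nt covers a mature arm and not the hairpin, but the order of the loci was also computed per length of the annotated hairpin. On that scale the ratio of Mir148b to Mir148a was 1.41 (95% exact interval 1.08 to 1.84) in replicate 1 and 2.36 (1.97 to 2.84) in replicate 2. The ratio of Mir152 to Mir148a was 1.48 (1.12 to 1.97) and 1.75 (1.43 to 2.15). The ratio of Mir148b to Mir152 was 0.95 (0.731 to 1.24) in replicate 1 and 1.35 (1.14 to 1.59) in replicate 2. Per length, Mir148a was thus the lowest of the 3 in both libraries, and the lead of Mir148b over Mir152 was present in replicate 2 alone.

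The family lay near the middle of the miRNA genes with enough reads to compare. By mean CPM, Mir148b ranked 219, Mir152 ranked 232 and Mir148a ranked 239 of all 2202 genes. Of the 472 genes with at least 10 reads in total, 53.6% had a lower mean than Mir148b, 50.8% a lower mean than Mir152 and 49.4% a lower mean than Mir148a. Only 19 genes, Mir152 included, had a mean between those of Mir148a and Mir148b, so the 3 loci were close to each other on the scale of the whole table, where the median of the tested genes was 40.6 CPM.

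**Figure D3:**
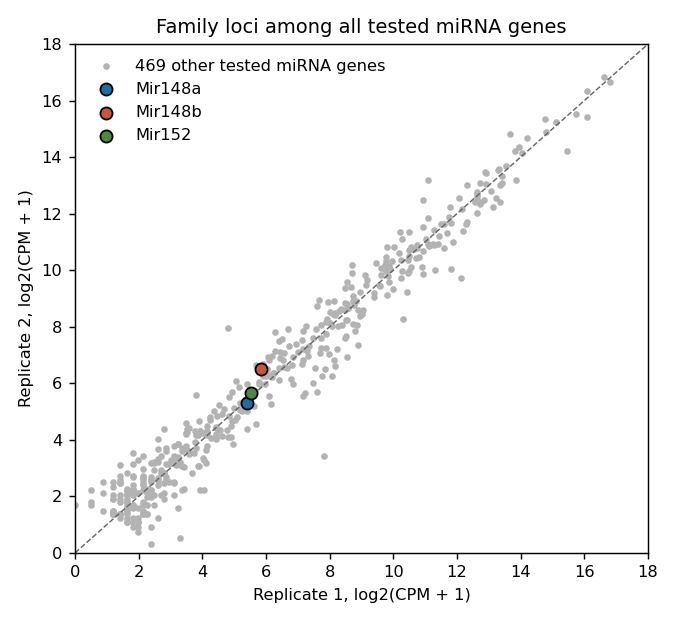
Level of each of the 472 tested miRNA genes in replicate 1 (x axis) and replicate 2 (y axis), both as log2(CPM + 1), with the family loci in colour and equality as a dashed line. The 3 loci sit together near the median level of the tested genes, Mir148a and Mir152 beside the line and Mir148b above it (56.7 against 89.0 CPM).

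Summed over the 3 loci, the family had 340 reads in replicate 1 and 787 in replicate 2. That was 142.8 CPM (95% interval 128.0 to 158.8) and 177.4 CPM (165.2 to 190.2), with a mean of 160.1 ± 24.5 CPM (SD, n = 2). The intervals of the summed level did not overlap, and the higher sum in replicate 2 came mostly from Mir148b. Of the family's reads, Mir148b held 39.7% in replicate 1 (95% Clopper-Pearson interval 34.5 to 45.1) and 50.2% in replicate 2 (46.6 to 53.7). Mir152 held 31.5% (26.6 to 36.7) and 28.1% (24.97 to 31.4), and Mir148a held 28.8% (24.1 to 34.0) and 21.7% (18.9 to 24.8). Every locus was thus a sizeable contributor in both libraries, with 21.7% as the lowest share, and the share of Mir148b moved most between them.

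**Figure D4:**
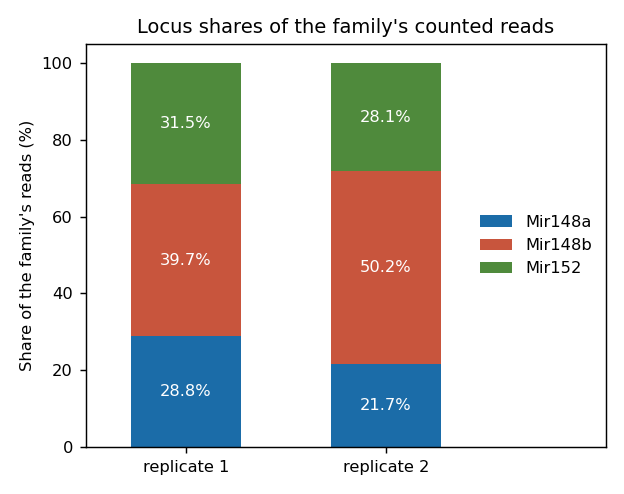
Share of the family's reads (%) held by Mir148a, Mir148b and Mir152 in each library, as stacked bars that add to the whole. Mir148b took 39.7% in replicate 1 and 50.2% in replicate 2, Mir152 31.5% and 28.1%, and Mir148a 28.8% and 21.7%.

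The libraries were compared gene by gene with a two-sided exact binomial test on all 472 tested genes, which allows for counting noise alone and sets 1 library against 1. Differences are log2(CPM + 1) in replicate 1 minus that in replicate 2, with TMM-scaled library sizes. Mir148b was lower in replicate 1 by this test, with a difference of -0.62 and an adjusted p of 2.39e-05 (exact binomial test, Benjamini-Hochberg over the 472 genes). Its scaled level in replicate 2 was 1.54 times that in replicate 1 (95% exact interval 1.26 to 1.89). For Mir148a the difference was 0.12 (adjusted p = 0.643, exact binomial test), and for Mir152 it was -0.12 (adjusted p = 0.614, exact binomial test). The ratio of replicate 2 to replicate 1 was 0.919 for Mir148a (95% exact interval 0.713 to 1.19) and 1.09 for Mir152 (0.860 to 1.38). Ratios within those bounds are compatible with the counts under counting error alone, so changes of that size are not excluded.

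Thus 1 of the 3 members was called, and the share called over all tested genes was 52.1%. In the direction of Mir148b, higher in replicate 2, 27.5% of all tested genes were called. With 3 loci, 1 call in either reading is close to these shares and is no result about the family. The median difference over the 3 members was -0.12, and over the 472 genes it was -0.07, with an interquartile range from -0.43 to 0.41. For Mir148b, 173 of the tested genes had a larger absolute difference between the libraries. A second test, edgeR's exact test, takes its dispersion from the same 2 libraries fitted as 1 group. The differences it tests thus also set its noise, so it gives no independent evidence. edgeR's exact test, which allows for the spread between these libraries through a common dispersion (coefficient of variation 0.351), gave Mir148b an unadjusted p of 0.405 and an adjusted p of 1. That test called none of the 3 members and 0.424% of the tested genes, the 2 loci Mir301 and Mir26a-1 of 472. At an unadjusted p under 0.05 it held 28 genes and none of the members.

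**Figure D5:**
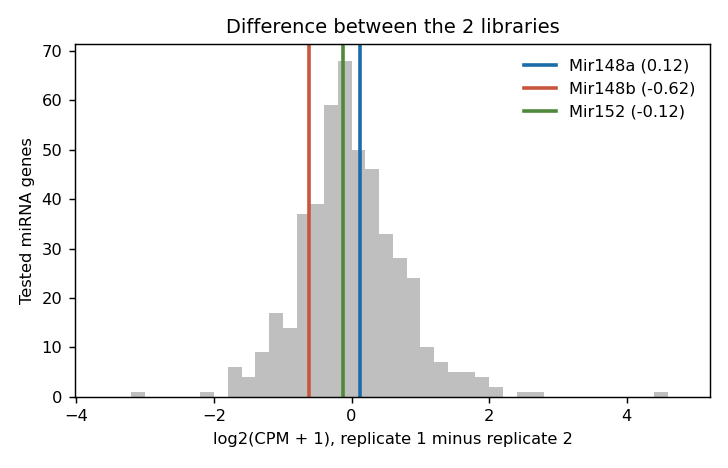
Histogram of the difference in log2(CPM + 1), replicate 1 minus replicate 2, over the 472 tested miRNA genes, with coloured lines for the family loci. Mir148a lies at 0.12 and Mir152 at -0.12, near the centre, and Mir148b at -0.62 lies left of the interquartile range of -0.43 to 0.41.

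Whether the members differed from each other in this change was read from the ratio of their ratios, a comparison chosen after the values were seen. Relative to Mir148a, Mir148b was 1.68 times higher in replicate 2 than in replicate 1 (95% exact conditional interval 1.21 to 2.33). Relative to Mir152 it was 1.42 times higher (1.03 to 1.94). Mir152 relative to Mir148a gave 1.18 (0.831 to 1.69), which spans equality. These ratios do not depend on how the libraries are scaled, but their intervals too cover counting error alone.

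For each locus, the 3 miRNA genes of nearest level were found by the Euclidean distance in log2(CPM + 1) over the 2 libraries. With 2 libraries this distance mostly reflects abundance. Nearest to Mir148a were Mir155, a miRNA of activated immune cells, with 100 and 176 reads (distance 0.05), Mir190a with 102 and 165 reads (0.08) and Mir24-1 with 97 and 187 reads (0.13). Nearest to Mir152 were Mir9-3, a copy of the neural miR-9, with 118 and 231 reads (0.15), Mir24-1 (0.27) and Mir344b with 99 and 274 reads (0.32). Nearest to Mir148b were Mir7-2 with 153 and 393 reads (0.18), Mir29b-1 with 141 and 447 reads (0.19) and Mir3059 with 154 and 398 reads (0.19). No family locus was among the 3 nearest of another. miR-24, miR-9, miR-7 and miR-29b have further genomic copies, so reads that fit more than 1 copy can be left out of those counts. No word of 20 bases of the 3 family hairpins occurred in another annotated gene. Copies outside annotated transcripts and inexact matches were not searched, so loss of multimapping reads at the family loci was not tested.

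The word CAGUGCA also opens other miRNAs, shifted by 1 base. In the table, 7 mature sequences begin with it, at bases 1 to 7, so that their own seed is AGUGCAA in the listed examples. Mir301b, listed here for the miR-130 and miR-301 family, has no sequence among these 7. Those of the other listed loci of this family, which has been studied in vessel growth, are shown with the shared word in capitals.
mmu-miR-130a-3p: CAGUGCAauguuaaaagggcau
mmu-miR-130b-3p: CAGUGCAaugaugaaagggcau
mmu-miR-301a-3p: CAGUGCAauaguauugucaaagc
mmu-miR-721: CAGUGCAauuaaaagggggaa
Mir130a, on chromosome 2, had 2197 and 3382 reads, a mean of 842 ± 113 CPM (SD, n = 2), which was 5.26 times the summed mean of the miR-148 and miR-152 family. Mir130b had 236 and 412 reads, a mean of 96.0 ± 4.40 CPM (SD, n = 2), a level above each family locus in replicate 1 and within the interval of Mir148b in replicate 2. Mir301 had 64 and 1106 reads, and its values of 26.9 and 249 CPM lay below and above every family locus. Mir301b had 8 and 10 reads, and Mir721 had none in either library. Together these 5 loci reached 1079 ± 38.9 CPM (SD, n = 2), and of its 4 tested loci Mir130a was called higher in replicate 1 and Mir301 higher in replicate 2. These 2 calls stand beside a share of 52.1% over all tested genes. The median difference of the list was 0.21, against -0.07 over all tested genes. The other 3 sequences that begin with this word, miR-130c, miR-6341 and miR-6389, come from genes outside that list and without a read.

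The same 6 bases AGUGCA, bases 3 to 8 of the family's 3p arms, stand at bases 3 to 8 of miR-350-5p and miR-291b-3p with another base before them. Mir350 had 338 and 647 reads, at 142 and 146 CPM above each single family locus, and Mir291b, a miRNA of embryonic stem cells, had none. Among the 19 sequences with these 6 bases at another position, miR-139-5p holds them from base 6, and Mir139 had 239072 and 514663 reads. A shared word outside the seed window is a match of letters and no shared target site was tested.

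miR-29 is another family known for repressing DNA methyltransferase transcripts, and its 4 loci were read beside the miR-148 and miR-152 loci. They summed to 24536 ± 4962 CPM (SD, n = 2), nearly all of it Mir29a at 18681 and 25955 CPM. Mir29c stood at 2210 and 1848 CPM, while Mir29b-2 at 76.8 and 141 CPM and Mir29b-1 at 59.2 and 101 CPM lay near Mir148b. All 4 miR-29 loci passed the exact binomial test, 1 higher in replicate 1 and 3 higher in replicate 2, with a median difference of -0.59, against 52.1% called and a median of -0.07 over all tested genes. The copies of miR-29b share their mature sequence, so their own counts can leave out reads. The list thus carried far more counted reads than the miR-148 and miR-152 family, whose summed mean was 160.1 CPM.

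Markers of the tissue and of other cells were read beside these levels. Of 13 neuron loci, 12 had reads in both libraries, and they summed to 90506 and 71678 CPM, carried by Mir132 and Mir128-1. The defining miR-124 loci had between 0 and 4 reads per library and are multicopy. The oligodendrocyte list (3 loci) summed to 4684 and 3502 CPM and the vessel list (3 loci) to 27862 and 23857 CPM. The blood list (6 loci) summed to 1965 and 1897 CPM, most of it Mir150 at 1701 and 1769 CPM. Each of these lists had reads at every locus in both libraries. Mir122 of liver stood at 58.4 and 76.0 CPM, above Mir148a and Mir152 in both libraries. Against Mir148b it was slightly higher in replicate 1 (56.7 CPM) and lower in replicate 2 (89.0 CPM). Where the Mir122 reads came from was not tested. The lists had no common direction between the libraries. Without Mir132, a choice made after seeing the data, the other 12 neuron loci summed to 20860 CPM in replicate 1 and 28329 CPM in replicate 2. The exact binomial test called 52.1% of all tested genes in either direction and 27.5% as higher in replicate 2. Of the 10 tested neuron loci it called 1 higher in replicate 1 and 4 higher in replicate 2. It called 1 oligodendrocyte locus in each direction, 2 vessel loci higher in replicate 1 and 1 in replicate 2, 2 blood loci higher in replicate 1, and Mir122 higher in replicate 2. The part of cell makeup, depth or multimapping in the difference of Mir148b was not tested.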

How the data were processed

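Small RNA libraries of 1 group, 2 biological replicates, were analysed. The authors deposited raw read counts per miRNA gene, not normalized, with build mm10 and GENCODE M21 per the deposited notes. Aligner, trimming and mismatch settings: not given in the sources used here. Gene-strand counts were used, and 4 summary lines were left out of library sizes. The rank, CPM and shares were computed from all 2202 genes, all matched to GENCODE M21. TMM factors (edgeR 4.0.16, R 4.3.3) came from the 472 genes with at least 10 reads in total. Each gene was compared by an exact binomial test given effective library sizes, with Benjamini-Hochberg adjustment, a threshold of 0.05 and a pseudocount of 1 CPM for log2 differences. A quasi-likelihood test needs a second group, so none was run. The exact binomial test was run on simulated Poisson counts with known fold changes. Those counts hold only the counting noise that the test assumes. The simulation therefore says nothing about the spread between real libraries. Sequences are from RefSeq (GRCm38.p6), folding from ViennaRNA 2.7.2, and the rest used Python 3.11.15, scipy 1.17.1, numpy 2.4.6 and pandas 2.3.3. Named are the members, overlapping genes, the 3 genes nearest in level, seed relatives and the listed loci. Gm32479, Nfe2l3, Medag and 1700009C05Rik were named after values were seen. The members and lists were chosen with earlier results of these data known. Alternatives covered strand, denominator, size factors, read minimum, pseudocount, length, noise model and each library alone.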

Additional observations from a re-analysis of the deposited data

How the results depend on the processing

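Besides the fixed and single-library values named below, 51 alternative values were computed. Of these, 41 kept their direction and call or moved by no more than the spread between the libraries. Pseudocounts of 0.5 and 5 CPM, counted among both, change the size of a difference but not its direction or call. Those values held by construction and say nothing about stability. Another 6 values are fixed, since the members' reads are the same with both strands counted. Each library alone gave 18 values, which with 2 libraries lie within their spread by construction and say nothing about stability. The log2 reads ratio of Mir148b to Mir148a was 0.46 in replicate 1 and 1.21 in replicate 2, and that of Mir148b to Mir152 0.34 and 0.84. Scaled to CPM by all mapped reads, multimapping reads included, the mean levels were 17.0 for Mir148a, 31.0 for Mir148b and 20.2 for Mir152, since the denominator is larger. With both strands counted together, Mir148a stood at 43.5 CPM and Mir152 at 51.8 CPM, with a smaller denominator: all reads lost, 197474 and 384735, were at loci that a miRNA gene overlaps on the other strand. Per hairpin length the mean log2 ratio of Mir148b to Mir152 was 0.18 in place of 0.59, and that of Mir152 to Mir148a was 0.69 in place of 0.25. edgeR's exact test ended the call of Mir148b (log2 ratio -0.62, adjusted p = 1) and called 2 genes in place of 246, and 0 members in place of 1. Over the 6 alternatives with a test, the adjusted p of Mir148b ran from 8.78e-06 to 1. The edgeR result is no independent check, since its dispersion came from the same 2 libraries. Counts of 98 to 395 reads per locus limit how small a difference can be seen.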

Other observations

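The hosts of Mir148b and Mir152 encode paralogous subunits of coatomer, so the genes for the other subunits were searched for miRNA genes as well, a search chosen after the loci were seen. Of 9 coatomer genes looked up (Copa, Copb1, Copb2, Copg1, Copg2, Cope, Arcn1, Copz1 and Copz2), 2 contained an annotated miRNA gene, Copz1 with Mir148b and Copz2 with Mir152, each on the strand of its host. Host transcripts were not analysed here, so whether hairpin and host levels go together was not tested.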
